A study of Mus musculus with 18 samples.

Results

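NRF2, encoded by Nfe2l2, its inhibitor KEAP1 and 8 genes known as NRF2 targets were followed in mouse kidney after ischemia and reperfusion. The 10 genes were taken by symbol from a table of 20825 genes, namely Nfe2l2, Keap1, Nqo1, Gclc, Gclm, Txnrd1, Srxn1, Osgin1, Me1 and G6pdx. All 10 were present, and all 10 passed the filter on low values. In unilateral ischemia and reperfusion (UIR), the pedicle of the right kidney was clamped for 45 minutes in C57BL/6 mice and then released, while the left kidney was left intact. The tested groups were UIR kidneys at 1, 3 and 21 days after surgery, and the controls were kidneys of sham-operated C57BL/6 mice at the same days. All mice were labelled as 11 weeks old, and each of the 6 groups had 3 biological replicates. No transgene or drug beyond the anesthetic, isoflurane, is named. The labels give neither the sex nor which kidney was sequenced. The intact left kidney can carry renal function, which limits UIR as a model of kidney failure.

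NRF2 is a transcription factor of the cap'n'collar family. In unstressed cells KEAP1 holds it in the cytosol and presents it to a CUL3 ubiquitin ligase, so that it is degraded; oxidants and electrophiles modify cysteines of KEAP1, and NRF2 then accumulates, enters the nucleus, pairs with a small MAF protein and binds antioxidant response elements. Control is thus largely at the level of the protein, and mRNA levels of Nfe2l2 and Keap1 do not measure it. Its targets make glutathione, reduce thioredoxin and peroxiredoxins, detoxify quinones and supply NADPH, an electron donor for the reductions among these steps. In the kidney the proximal tubule, which is rich in mitochondria and most exposed in ischemia, holds much of this machinery.

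The core letters of the antioxidant response element, TGACNNNGC, were searched on both strands in RefSeq promoter windows of the members, since these are the letters that NRF2 and small MAF proteins are known to recognise. A window ran from 250 bases before to 50 bases after an annotated start, 300 bases in all, on the GRCm38.p6 build, which is not the mm9 build named for the deposited values. The table held windows for 9 of the 10 genes and none for Gclc. The letters occurred in 6 of the 9 genes (66.7%), against 14% of the 27025 genes with a window and 15.9% of the 15798 genes of the deposited table that have one. Txnrd1 had 3 windows and Me1 had 2, which gives these genes more chances of a match. Each run below shows the match with 10 bases on each side, 5′ to 3′ on the strand that reads TGAC, with the fixed letters of the element in capitals.
Nfe2l2: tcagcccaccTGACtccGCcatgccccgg
Gclm: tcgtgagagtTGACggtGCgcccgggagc
Txnrd1: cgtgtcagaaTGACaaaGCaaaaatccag
Srxn1: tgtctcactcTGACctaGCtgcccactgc
Me1: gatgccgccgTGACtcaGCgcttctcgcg
G6pdx: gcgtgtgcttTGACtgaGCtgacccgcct
The runs lie at chr2:75704885-75704913 (Nfe2l2, minus strand), chr3:122245413-122245441 (Gclm, minus), chr10:82859104-82859132 (Txnrd1, minus), chr2:152105542-152105570 (Srxn1, minus), chr9:86695902-86695930 (Me1, minus) and chrX:74428919-74428947 (G6pdx, plus). Counted from the annotated start, the matches began 240 bases before it in Nfe2l2, 134 before in Gclm, 92 before in Txnrd1, 57 before in G6pdx and 6 before in Me1, and 29 bases after it in Srxn1. The windows of Keap1, Nqo1 and Osgin1 held no match, which says only that these letters are not in these windows. Known enhancers of this kind often lie farther from the start than the windows reach.

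Levels are FPKM, fragment numbers corrected for transcript length and library size, as the authors deposited them. FPKM sums per library ran from 424207 to 549490, and the number of reads behind a value is unknown. A log2 fold is the fitted difference, first-named group minus second, of log2(FPKM + 1), given ± SE, and p-values are from limma with Benjamini-Hochberg adjustment over all 14716 genes tested, two-sided, with a threshold of 0.05. Kidney markers were present in every group: each of 10 proximal tubule and 8 thick limb, distal tubule and collecting duct markers was above 0 in at least 1 library of it. The summed proximal tubule markers were lower in UIR kidneys. They ran from 8110 to 13100 FPKM in UIR kidneys against 20800 to 29200 FPKM in sham kidneys at day 1, from 838 to 990 FPKM against 49400 to 58200 FPKM at day 3, and from 272 to 1460 FPKM against 39700 to 46000 FPKM at day 21. Kap, 1 of the 10 markers, carried most of these sums. Without Kap, the sums were 1020 to 2630 FPKM in UIR kidneys against 2430 to 2750 FPKM in sham kidneys at day 1, which overlapped, 321 to 473 FPKM against 6530 to 6970 FPKM at day 3, and 54.9 to 348 FPKM against 6360 to 7460 FPKM at day 21. The summed markers of macrophages reached 3060 to 4310 FPKM in UIR kidneys at day 21, against 48.4 to 60.4 FPKM in sham kidneys. In whole tissue, fewer cells of a type and less RNA per cell cannot be told apart, and this holds for every difference given here.

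The 10 genes did not move as 1 block. At day 1, Srxn1, Txnrd1, Gclc and Nfe2l2 were higher in UIR kidneys than in day-1 sham kidneys, Nqo1, Gclm and Me1 were lower, and Keap1, Osgin1 and G6pdx did not pass the threshold. These 7 of 10 calls stand beside 59.6% of all genes called at day 1, of which 28.5% were higher and 31.1% lower. At day 3 all 10 were called, 5 higher (Nfe2l2, Keap1, Txnrd1, Srxn1 and G6pdx) and 5 lower (Nqo1, Gclc, Gclm, Osgin1 and Me1), where 75.5% of all genes were called, 57.6% higher and 17.9% lower. At day 21, 8 were called, 3 higher (Nfe2l2, Keap1 and G6pdx) and 5 lower (Nqo1, Gclc, Gclm, Osgin1 and Me1), where 80.8% of all genes were called, 60.7% higher and 20.1% lower. For days 1, 3 and 21, the median log2 folds of the 10 genes were 0.34, -0.06 and -0.82, beside -0.03, 0.44 and 0.53 over all genes tested. With so many genes called, these counts say little about the 10 genes as a set, and their sizes and directions are given below. The UIR and sham values did not overlap in 7 genes at day 1 (61.3% of all genes), 10 at day 3 (78.7%) and 9 at day 21 (84.3%).

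**Figure D1:**
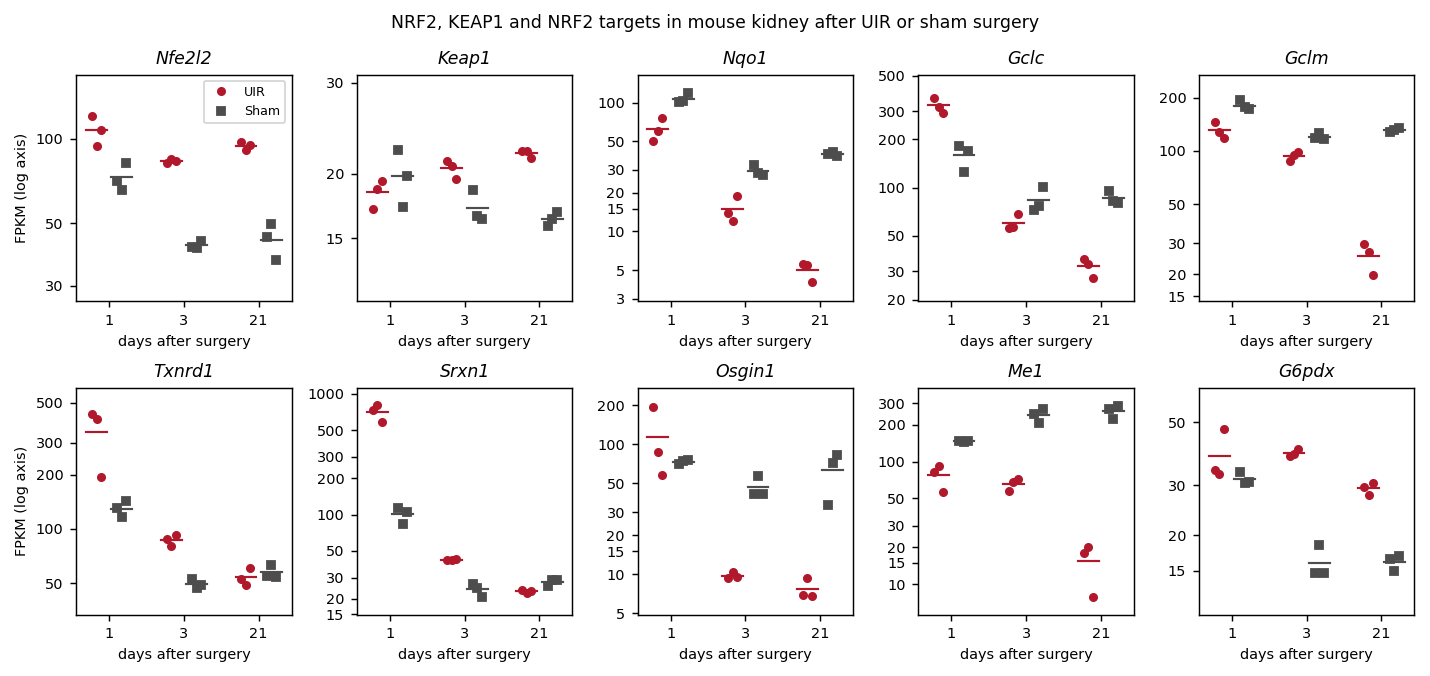
FPKM of each of the 10 genes (log axis, a scale of its own for each gene) by days after surgery, with 1 point for each UIR (red circles) and sham (grey squares) library and a line at the group mean. Nfe2l2 stayed above sham at every day, Srxn1 was high in the UIR kidneys of day 1 alone among UIR groups, and Nqo1, Gclm and Me1 were lowest in the UIR kidneys of day 21.

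The sham kidneys of day 1 stood apart from those of days 3 and 21 in most of these genes, which bears on every comparison at day 1. Srxn1, for example, had 26.6, 24.5 and 20.8 FPKM in sham kidneys of day 3, against 113, 84.0 and 104 FPKM in sham kidneys of day 1. Nqo1 had 32.8, 28.2 and 27.3 FPKM in sham kidneys of day 3, against 101, 102 and 118 FPKM in those of day 1. The values of day 3 and day 1 did not overlap in either gene, as in 53.3% of all genes. Between sham day 3 and sham day 1, 8 of the 10 genes were called (42.5% of all genes), 7 of them lower at day 3 (29.7% of all genes) and 1 higher (12.8%), with log2 folds from -0.58 ± 0.12 for Gclm to -2.02 ± 0.12 for Srxn1, while Me1 was the higher one (0.70 ± 0.25, adjusted p = 0.032). The call of Me1 was lost without any 1 of 5 of the 6 libraries, with adjusted p from 0.067 to 0.098. It was also lost with TPM (0.59, adjusted p = 0.078), quantile normalization (0.51, adjusted p = 0.18) and no filter on low values (adjusted p = 0.053). Between sham day 21 and sham day 1, 9 were called (39.4% of all genes), 8 lower (27.2%) and 1, Me1, higher (12.3%). Between sham day 21 and sham day 3, limma called 0 of the 10 genes (0.034% of all genes), and 1, Nqo1, was under an unadjusted p of 0.05. Day-1 values of the 10 genes are therefore also given against the 6 sham libraries of days 3 and 21 together. Against these, 8 of the 10 genes were called (71.5% of all genes), 7 higher (39.6% of all genes) and 1, Me1, lower (32% of all genes), with a median log2 fold of 1.05 for the 10 genes and 0.06 for all genes. Both comparisons use the same UIR libraries. Surgery and time since surgery cannot be told apart in the sham groups of a single day.

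Nfe2l2, the gene of NRF2 itself, was the most steadily raised of the 10. At day 1 it had 121, 94.6 and 107 FPKM in UIR kidneys, against 70.7, 65.9 and 82.0 FPKM in sham kidneys. At day 3 it had 81.9, 85.0 and 83.6 FPKM in UIR kidneys, against 41.3, 41.0 and 43.4 FPKM in sham kidneys. By day 21 the values were 97.2, 91.4 and 95.2 FPKM in UIR kidneys, against 44.8, 49.7 and 37.0 FPKM in sham kidneys. Every UIR library lay above every sham library of its day. The log2 folds were 0.56 ± 0.11 (adjusted p = 0.00033), 0.98 ± 0.11 (adjusted p = 5.2e-07) and 1.10 ± 0.11 (adjusted p = 8.8e-08) at days 1, 3 and 21. Against the later sham kidneys the day-1 log2 fold was 1.31 ± 0.09 (adjusted p = 3.8e-09), and the sham level was lower at days 3 and 21 than at day 1. Relative to the all-gene median, the folds against sham of the same day were 0.58, 0.54 and 0.57, so their growth over the days rests on the scale. Among UIR kidneys, Nfe2l2 was lower at day 3 than at day 1 (log2 fold -0.36 ± 0.11, adjusted p = 0.0082), and days 21 and 3 did not differ beyond the threshold (0.18 ± 0.11, 95% interval -0.05 to 0.41, adjusted p = 0.17). The first call was lost with TPM (-0.19, adjusted p = 0.14) and quantile normalization (-0.24, adjusted p = 0.056), and the second difference was called with quantile normalization (0.31, adjusted p = 0.015) and with the compared groups alone (adjusted p = 0.023). UIR kidneys of days 21 and 1 did not differ beyond the threshold (-0.18 ± 0.11, adjusted p = 0.14), but median-of-ratios scaling called day 21 lower (-0.68, adjusted p = 3.1e-05).

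Keap1, the adaptor that sends NRF2 to degradation, varied least. At day 1 it had 17.1, 18.7 and 19.4 FPKM in UIR kidneys, against 22.2, 17.2 and 19.8 FPKM in sham kidneys, which overlapped (log2 fold -0.09, 95% interval -0.27 to 0.09, adjusted p = 0.37, and 0.13 against the later sham kidneys, adjusted p = 0.13). At day 3 it had 21.2, 20.7 and 19.5 FPKM in UIR kidneys, against 18.6, 16.5 and 16.3 FPKM in sham kidneys. Those of day 21 were 22.1, 22.1 and 21.4 FPKM in UIR kidneys, against 15.8, 16.3 and 16.9 FPKM in sham kidneys. The groups did not overlap at days 3 and 21, and the log2 folds were 0.24 ± 0.09 (adjusted p = 0.016) and 0.40 ± 0.09 (adjusted p = 0.00042). These rises were smaller than that of the middle gene: relative to the all-gene median they were -0.19 and -0.13. With median-of-ratios scaling, which sets the middle gene to no change, Keap1 turned to -0.26 (adjusted p = 0.015) at day 3 and -0.19 (adjusted p = 0.062) at day 21, and with quantile normalization it was -0.12 (adjusted p = 0.22) at day 3 and 0.04 at day 21, so its direction rests on the scale. The day-3 call was also lost without UIR replicate 1 (adjusted p = 0.057), sham replicate 2 (adjusted p = 0.050) or sham replicate 3 (adjusted p = 0.062).

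The ratio of Nfe2l2 to Keap1 within a library does not depend on the scale between libraries. It was 7.07, 5.06 and 5.55 in UIR kidneys against 3.18, 3.82 and 4.15 in sham kidneys at day 1. It was 3.87, 4.10 and 4.28 in UIR kidneys against 2.22, 2.48 and 2.66 in sham kidneys at day 3, and 4.39, 4.14 and 4.44 in UIR kidneys against 2.83, 3.04 and 2.2 in sham kidneys at day 21. UIR and sham ratios did not overlap at any day. The ratio was chosen after its values were seen, so no test is given.

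**Figure D2:**
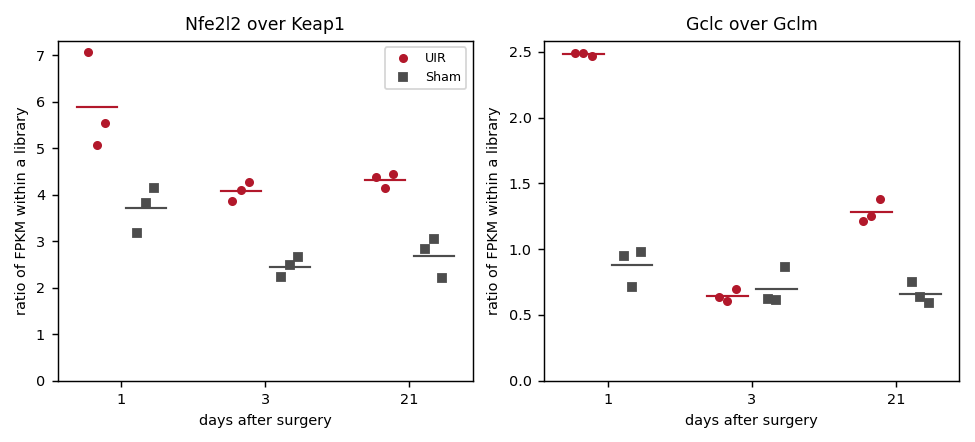
Ratios of FPKM within each library, Nfe2l2 over Keap1 (left) and Gclc over Gclm (right), by days after surgery, with 1 point per UIR (red circles) and sham (grey squares) library and a line at the group mean. The ratio of Nfe2l2 to Keap1 was higher in every UIR library than in any sham library of its day, and the ratio of Gclc to Gclm was 2.47 to 2.49 in the UIR kidneys of day 1.

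Gclc and Gclm encode the catalytic and the modifier subunit of glutamate-cysteine ligase, the rate-limiting enzyme of glutathione synthesis, and they parted at day 1. Gclc had 363, 320.0 and 293 FPKM in UIR kidneys of day 1, against 183, 126 and 168 FPKM in sham kidneys. Gclm had 146, 128 and 119 FPKM in UIR kidneys of day 1, against 193, 176 and 171 FPKM in sham kidneys. All UIR values of Gclc were above the sham values, and all UIR values of Gclm were below them. The log2 folds were 1.04 ± 0.15 for Gclc (adjusted p = 2.6e-05) and -0.46 ± 0.12 for Gclm (adjusted p = 0.0029). Against the later sham kidneys Gclc was 1.94 ± 0.13 (adjusted p = 2.5e-09), whereas Gclm was 0.06 ± 0.10 (95% interval -0.16 to 0.27, adjusted p = 0.62), so the fall of Gclm at day 1 depends on which sham kidneys serve as the control.

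At day 3 the catalytic subunit was no longer raised. Gclc had 56.0, 57.0 and 68.3 FPKM in UIR kidneys, against 72.9, 76.5 and 100.3 FPKM in sham kidneys, a log2 fold of -0.45 ± 0.15 (adjusted p = 0.015). Gclm had 87.7, 94.5 and 98.2 FPKM in UIR kidneys, against 118, 126 and 116 FPKM in sham kidneys, a log2 fold of -0.36 ± 0.12 (adjusted p = 0.011). Neither pair of groups overlapped, but both calls were lost with values rescaled to TPM (Gclc -0.17, adjusted p = 0.34, and Gclm -0.07, adjusted p = 0.57) and with quantile normalization (Gclc -0.35, adjusted p = 0.052, and Gclm -0.05). That of Gclc was also lost without sham day-3 replicate 3 (-0.31, adjusted p = 0.092) or UIR day-3 replicate 1 (-0.40, adjusted p = 0.055).

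By day 21 both subunits were well below sham. Gclc had 36.1, 33.3 and 27.3 FPKM in UIR kidneys, against 94.7, 82.5 and 80.0 FPKM in sham kidneys, a log2 fold of -1.39 ± 0.15 (adjusted p = 3.9e-07). Gclm had 29.7, 26.7 and 19.7 FPKM in UIR kidneys, against 127, 131 and 135 FPKM in sham kidneys, a log2 fold of -2.34 ± 0.12 (adjusted p = 4.9e-11). The ratio of Gclc to Gclm was 2.49, 2.49 and 2.47 in UIR kidneys of day 1 against 0.949, 0.712 and 0.981 in sham kidneys, and 1.21, 1.25 and 1.38 in UIR kidneys of day 21 against 0.746, 0.632 and 0.593 in sham kidneys. At day 3 the ratios overlapped, with 0.639, 0.603 and 0.695 in UIR kidneys and 0.620, 0.609 and 0.861 in sham kidneys. This ratio, too, was chosen after its values were seen.

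Srxn1, sulfiredoxin, which repairs overoxidised peroxiredoxins, showed the largest rise of the 10 genes at day 1. It had 735, 799.9 and 582 FPKM in UIR kidneys of day 1, against 113, 84.0 and 104 FPKM in sham kidneys, far apart. The log2 fold was 2.80 ± 0.12 (adjusted p = 2.0e-10), position 67 from the top among the 14716 genes tested. Against the later sham kidneys it was 4.71 ± 0.11 (adjusted p = 1.1e-13), position 41 from the top. At day 3 Srxn1 had 42.1, 41.8 and 42.7 FPKM in UIR kidneys, against 26.6, 24.5 and 20.8 FPKM in sham kidneys, still without overlap (0.80 ± 0.12, adjusted p = 2.0e-05). Day 21 gave 23.7, 22.4 and 23.3 FPKM in UIR kidneys, against 25.7, 28.6 and 29.0 FPKM in sham kidneys. These 3 UIR values lay below the 3 sham values, but the difference did not pass the threshold (-0.25, 95% interval -0.51 to 0.01, adjusted p = 0.071), which it did with library weights (-0.22, adjusted p = 0.042), with only the compared groups fitted (adjusted p = 0.012) and with quantile normalization (-0.54). Within UIR kidneys the fall between day 1 and day 3 was -4.02 ± 0.12 (adjusted p = 4.6e-13), position 24 from the bottom among all genes.

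Txnrd1, the cytosolic thioredoxin reductase, followed Srxn1 at a smaller size. It had 433, 406 and 194 FPKM in UIR kidneys of day 1, against 131, 116 and 143 FPKM in sham kidneys. The third UIR library was well below the other two and still above all sham libraries. The log2 fold was 1.32 ± 0.21 (adjusted p = 5.9e-05), and without that library 1.69 (adjusted p = 1.4e-08). It was 2.58 ± 0.18 against the later sham kidneys (adjusted p = 3.7e-09). At day 3 Txnrd1 had 87.5, 80.3 and 93.1 FPKM in UIR kidneys, against 52.9, 46.9 and 48.9 FPKM in sham kidneys (0.80 ± 0.21, adjusted p = 0.0028). Day 21 gave 52.7, 48.7 and 60.6 FPKM in UIR kidneys, against 54.7, 63.2 and 54.4 FPKM in sham kidneys, which overlapped (-0.09, 95% interval -0.54 to 0.36, adjusted p = 0.70). The rises of both genes at day 3 were 0.36 above the all-gene median, and with median-of-ratios scaling neither was called (Txnrd1 0.27, adjusted p = 0.30, and Srxn1 0.28, adjusted p = 0.081). With that scaling both were called lower at day 21 (Txnrd1 -0.70, adjusted p = 0.011, and Srxn1 -0.85).

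Nqo1, a quinone reductase often used as a readout of NRF2, was lower in UIR kidneys than in sham kidneys of the same day throughout. It had 50.7, 59.6 and 75.6 FPKM in UIR kidneys of day 1, against 101, 102 and 118 FPKM in sham kidneys. At day 3 it had 13.9, 12.2 and 18.8 FPKM in UIR kidneys, against 32.8, 28.2 and 27.3 FPKM in sham kidneys. Day 21 gave 5.63, 5.45 and 4.03 FPKM in UIR kidneys, against 40.0, 41.0 and 38.4 FPKM in sham kidneys. No UIR value reached a sham value of its day. The log2 folds were -0.79 ± 0.16 (adjusted p = 0.00040), -0.95 ± 0.16 (adjusted p = 4.5e-05) and -2.77 ± 0.16 (adjusted p = 1.8e-10) at days 1, 3 and 21. The direction at day 1 turned with the control: against the sham kidneys of days 3 and 21, Nqo1 was higher in UIR kidneys of day 1 (0.82 ± 0.14, adjusted p = 4.7e-05). In order of level, the 6 groups were sham day 1, UIR day 1, sham day 21, sham day 3, UIR day 3 and UIR day 21, and no neighbouring groups overlapped.

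Me1 and G6pdx encode cytosolic sources of NADPH, malic enzyme and glucose-6-phosphate dehydrogenase of the pentose phosphate pathway, and they moved in opposite directions. Me1 had 82.6, 92.4 and 56.2 FPKM in UIR kidneys of day 1, against 147, 145 and 146 FPKM in sham kidneys. Day 3 gave 57.3, 67.9 and 71.4 FPKM in UIR kidneys, against 245, 207 and 267 FPKM in sham kidneys. At day 21 it had 17.9, 20.1 and 7.91 FPKM in UIR kidneys, against 267, 221 and 285 FPKM in sham kidneys. All UIR values were below all sham values of any day. The log2 folds were -0.94 ± 0.25 (adjusted p = 0.0039), -1.85 ± 0.25 (adjusted p = 4.9e-06) and -4.07 ± 0.25 (adjusted p = 3.9e-10), the last at position 132 from the bottom among all genes. The day-1 value against the later sham kidneys was -1.70 ± 0.22 (adjusted p = 2.9e-06). The UIR library with the lowest Me1 at day 21, replicate 3, also had the lowest summed proximal tubule markers of its group. Its sum was 272 FPKM, against 1370 and 1460 FPKM in the other libraries. Without this library the log2 fold of Me1 was -3.69. The link is not particular to Me1: the same library was the lowest of its group in Nqo1, Gclc, Gclm, Osgin1 and Keap1. It was the highest in Txnrd1 and G6pdx.

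G6pdx had 33.9, 32.9 and 47.1 FPKM in UIR kidneys of day 1, against 33.3, 30.6 and 30.9 FPKM in sham kidneys. These groups overlapped (0.24, 95% interval -0.01 to 0.48, adjusted p = 0.086), and the value was 0.08 without the third UIR library and called without the first (0.31, adjusted p = 0.047) or the second (0.33, adjusted p = 0.031), as it was with median-of-ratios scaling (0.28, adjusted p = 0.043). At day 3 it had 38.0, 38.7 and 40.2 FPKM in UIR kidneys, against 14.8, 18.5 and 14.8 FPKM in sham kidneys. At day 21 it had 29.5, 27.8 and 30.5 FPKM in UIR kidneys, against 16.5, 15.0 and 16.9 FPKM in sham kidneys. UIR lay above sham without overlap at both later days, with log2 folds of 1.24 ± 0.12 (adjusted p = 7.9e-08) and 0.82 ± 0.12 (adjusted p = 6.7e-06). With median-of-ratios scaling the day-21 value was 0.22 (adjusted p = 0.092). Between UIR kidneys of days 3 and 1 the log2 fold was 0.06 ± 0.12 (95% interval -0.19 to 0.30, adjusted p = 0.69), called higher without UIR day-1 replicate 3 (0.22, adjusted p = 0.047) and lower with median-of-ratios scaling (-0.34, adjusted p = 0.016), whereas in sham kidneys it was lower at day 3 than at day 1 (-0.94 ± 0.12, adjusted p = 1.2e-05). Against the later sham kidneys the day-1 log2 fold was 1.17 ± 0.10 (adjusted p = 3.0e-08).

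Osgin1, oxidative stress induced growth inhibitor 1, was the most variable. It had 194, 87.6 and 58.2 FPKM in UIR kidneys of day 1, against 70.5, 73.7 and 76.0 FPKM in sham kidneys. The UIR values lay on both sides of the sham values, and the log2 fold of 0.44 ± 0.34 (95% interval -0.29 to 1.17, adjusted p = 0.29) was decided by single libraries: it was -0.04 without UIR replicate 1 and 0.82 (adjusted p = 0.042) without UIR replicate 3. Osgin1 was called higher at day 1 against the later sham kidneys (0.93 ± 0.30, adjusted p = 0.011), although the values overlapped. At day 3 Osgin1 had 9.41, 10.4 and 9.43 FPKM in UIR kidneys, against 41.6, 56.8 and 41.7 FPKM in sham kidneys. At day 21 it had 6.95, 9.29 and 6.84 FPKM in UIR kidneys, against 33.8, 72.0 and 82.7 FPKM in sham kidneys. Both later days were free of overlap, with log2 folds of -2.13 ± 0.34 (adjusted p = 3.4e-05) and -2.79 ± 0.34 (adjusted p = 1.4e-06).

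**Figure D3:**
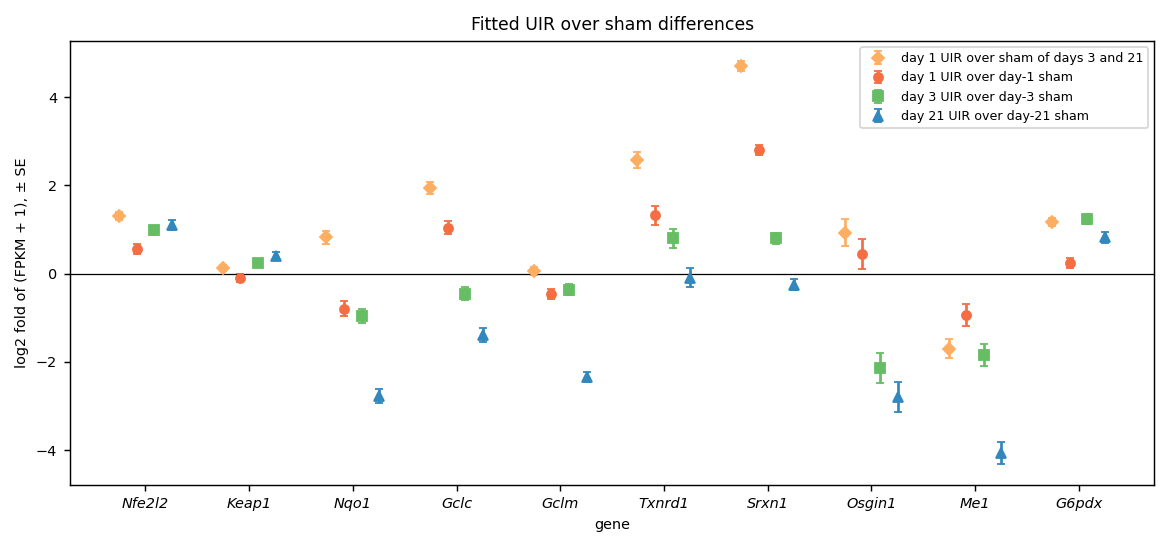
Fitted log2 folds of (FPKM + 1) for each of the 10 genes ± SE, for UIR kidneys of day 1 over the sham kidneys of days 3 and 21 (diamonds) or of day 1 (circles), and for UIR over sham at day 3 (squares) and day 21 (triangles). Nfe2l2 was above 0 in all 4 comparisons and Me1 below 0 in all 4, while Nqo1 at day 1 was -0.79 or 0.82, depending on the sham kidneys used.

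The effects of UIR differed between days in most of the 10 genes. The difference of effects between day 21 and day 1 was called in all 10 (70.4% of all genes), 7 of them downward (16.3% of all genes) and 3 upward (54.1%). Between day 3 and day 1 it was called in 7 (62.9% of all genes), 4 downward (12.7%) and 3 upward (50.1%). Between day 21 and day 3 it was called in 7 (46.2% of all genes), 7 downward (20.2%) and 0 upward (26.1%). The change was steepest in Osgin1, Me1 and Srxn1, with differences between the day-21 and the day-1 effect of -3.23, -3.13 and -3.05. Within UIR kidneys alone, without any sham library, 7 genes were called between day 3 and day 1 (66.5% of all genes), 7 lower at day 3 and 0 higher (17.1% and 49.4% of all genes), with Gclc (-2.41 ± 0.15), Nqo1 (-1.98 ± 0.16) and Txnrd1 (-1.89 ± 0.21) next to Osgin1 (-3.23 ± 0.34) and Srxn1. Between day 21 and day 3, 7 were called (56.2% of all genes), 7 lower and 0 higher (24% and 32.2% of all genes), with Me1 (-2.12 ± 0.25) and Gclm (-1.86 ± 0.12) moving most. In UIR kidneys the larger fall of Gclm and Me1 thus lay between days 3 and 21, and that of Srxn1, Osgin1 and Gclc between days 1 and 3.

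Markers of other cells moved over the same days. At day 3 and again at day 21, 10 of 10 proximal tubule markers were called lower in UIR kidneys (beside 17.9% and 20.1% of all genes). At day 1, 4 of 10 were (beside 31.1% of all genes), and 9 of 10 were against the later sham kidneys (beside 32%). In sham kidneys, 5 of the 10 were called higher at day 3 than at day 1 (beside 12.8% of all genes). No proximal tubule marker was at 0 in every library of a group. Of the 8 thick limb, distal tubule and collecting duct markers, 5, 4 and 5 were called lower and 1, 1 and 0 higher at days 1, 3 and 21. With the later sham kidneys as control, 5 of these were lower and 2 higher at day 1 (beside 32% and 39.6% of all genes). Macrophage markers were called higher in 8 of 8 and fibroblast and pericyte markers in 6 of 6 at days 3 and 21 (beside 57.6% and 60.7% of all genes). Only 6 macrophage markers reached 1 FPKM in sham kidneys of day 3 and 7 in those of day 21, against 8 in UIR kidneys of either day. Some may thus have passed the filter on low values only through UIR groups in which they were high, which limits this count. At day 1, 2 of 8 macrophage markers were higher and 2 lower (beside 28.5% and 31.1% of all genes), and none of the 6 fibroblast and pericyte markers was called. Day-1 UIR kidneys against the later sham kidneys had 3 macrophage markers higher and 3 lower (beside 39.6% and 32% of all genes). In that comparison 1 fibroblast and pericyte marker was higher and 1 lower. Summed neutrophil markers were 226, 221 and 121 FPKM in UIR kidneys of day 1, against 73.7, 22.9 and 60.4 FPKM in sham kidneys. The low library, UIR replicate 3, is also the one of its group with the lowest Srxn1, Txnrd1, Gclc, Gclm, Osgin1 and Me1, but with the highest Nqo1, G6pdx and Keap1. It had the lowest summed proximal tubule markers of that group, 8110 FPKM. The part of these shifts in the changes of the 10 genes was not tested.

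Across the 18 libraries, genes with the most similar profiles were sought among 9406 genes with a mean of at least 5 FPKM, by Pearson's r of log2(FPKM + 1). This is a description, since libraries of a group share their treatment and all genes of a library share its scale. Nfe2l2 was most like F11r (0.974), Gtf2ird1 (0.974), Smad1 (0.973), Mettl2 (0.973) and Cdc42ep4 (0.969). Srxn1 was most like Zwint (0.975), Txnrd1 (0.972), Anxa7 (0.970), Retnlg (0.969) and Bcl2l1 (0.967), so that 1 of its 5 nearest genes was another member. Nqo1 was most like Lpcat3 (0.984), Apob (0.951), Dtnbp1 (0.948), D17Wsu92e (0.945) and Ppcs (0.940). Me1 was most like Slc17a1 (0.990), Abcg2 (0.989), Slc22a2 (0.987), Slc17a3 (0.987) and Lrrc19 (0.986), among which Slc17a1, Slc17a3 and Slc22a2 are transporters of the proximal tubule. Among the 10 genes, r was 0.91 between Nqo1 and Gclm and 0.88 between Nfe2l2 and G6pdx, but -0.19 between Nfe2l2 and Nqo1 and -0.76 between Nfe2l2 and Me1. Nfe2l2 mRNA and the mRNA of several of its targets thus did not run in parallel over these libraries.

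Further genes of the pathway were read from 6 lists holding 75 genes. Of all genes tested, 28.5%, 57.6% and 60.7% were called higher and 31.1%, 17.9% and 20.1% lower at days 1, 3 and 21, with medians of -0.03, 0.44 and 0.53, and each list is read against these shares. Day-1 folds against the later sham kidneys are given beside those against day-1 sham kidneys. Most list genes are named only at days at which they ranked among the 2 largest rises or falls of their list. A day left out does not mean no change at that day. Among partners and regulators of NRF2, 15 of 16 genes could be tested. At days 1, 3 and 21, 7, 7 and 9 were higher (beside 28.5%, 57.6% and 60.7% of all genes) and 1, 0 and 2 lower (beside 31.1%, 17.9% and 20.1%), with medians of 0.18, 0.33 and 0.48. The largest rise at day 1 was of Maff, a small MAF partner of NRF2. Maff had 71.0, 55.5 and 41.8 FPKM in UIR kidneys of day 1, against 17.7, 11.9 and 15.2 FPKM in sham kidneys, which did not overlap (1.83 ± 0.16, adjusted p = 1.2e-07, and 4.75 ± 0.14 against the later sham kidneys). It was at 10.3 ± 0.67 FPKM in UIR kidneys of day 3 and 9.71 ± 1.19 FPKM in those of day 21, against 1.12 ± 0.18 and 1.05 ± 0.05 FPKM in sham kidneys (SD, n = 3 each), which gave log2 folds of 2.42 and 2.38. Mafk, a second small MAF, was called at day 1 (1.30 ± 0.11, and 2.08 ± 0.09 against the later sham kidneys) and day 21 (0.48 ± 0.11). At day 3 it was at 0.16 (adjusted p = 0.19), called higher with TPM (0.44) and lower with median-of-ratios scaling (-0.34) and quantile normalization (-0.30), and these gave -0.10 and -0.02 at day 21.

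The third small MAF, Mafg, was at -0.06, 0.01 and -0.23 and called at no day, but its values depend on the control and the scale. It was called higher at day 1 against the later sham kidneys (0.39, adjusted p = 0.0010). At day 3 TPM called it higher (0.29, adjusted p = 0.031) and median-of-ratios scaling (-0.51) and quantile normalization (-0.29) lower. At day 21 Mafg was called lower with median-of-ratios scaling (-0.83), quantile normalization (-0.58), library weights (adjusted p = 0.033) and the replicate block (adjusted p = 0.045), and without UIR replicate 2 (-0.31, adjusted p = 0.018) or sham replicate 3 (-0.35, adjusted p = 0.0061). Bach1, a repressor that competes with NRF2 for its sites, was higher at day 1 (0.77 ± 0.17, and 1.05 ± 0.15 against the later sham kidneys). At day 3 Bach1 was at 0.33 (adjusted p = 0.086), and called with TPM (0.62, adjusted p = 0.0053), library weights (0.40, adjusted p = 0.00090) and the compared groups alone (adjusted p = 0.020). At day 21 it was higher (0.87 ± 0.17), a call lost with median-of-ratios scaling (0.31, adjusted p = 0.13) and quantile normalization (0.28, adjusted p = 0.12).

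Sqstm1, which encodes the KEAP1-binding autophagy receptor p62, was at 0.18 at day 1 (adjusted p = 0.20), called without UIR replicate 3 (0.30, adjusted p = 0.038) or sham replicate 1 (0.31, adjusted p = 0.034), and higher against the later sham kidneys (1.67 ± 0.10, adjusted p = 7.1e-10). At day 3 Sqstm1 was at -0.05 (adjusted p = 0.71), called lower with median-of-ratios scaling (-0.58, adjusted p = 0.0012) and higher with quantile normalization (0.36, adjusted p = 0.0092), and at day 21 it was lower (-0.72 ± 0.12, adjusted p = 3.5e-05). Parts of the ubiquitin ligases that degrade NRF2, and a kinase that marks it for one of them, did not move together. Cul3 was higher at day 1 (0.66 ± 0.10, and 0.43 ± 0.09 against the later sham kidneys) and at -0.14 at day 3 (adjusted p = 0.24). At day 21 Cul3 was lower (-0.44 ± 0.10), a call lost with TPM (-0.25, adjusted p = 0.056). Rbx1 was higher at day 1 (0.40 ± 0.11), though not against the later sham kidneys (0.15, adjusted p = 0.15). Btrc was lower at day 1 (-0.48 ± 0.09, and -0.51 ± 0.08 against the later sham kidneys). The kinase gene Gsk3b was called higher at all 3 days (0.83 ± 0.07, 0.94 ± 0.07 and 0.63 ± 0.07, and 0.87 ± 0.06 at day 1 against the later sham kidneys). Relative to the all-gene median Gsk3b was at 0.86, 0.51 and 0.09, so its day-21 rise was close to that of the middle gene. Rbx1, Gsk3b and the day-1 value of Cul3 were added after their values were seen. Some list values given below also lie outside the naming rule, among them Ggct and Chac1 at days 1 and 21, Gss at days 1 and 3, and Me3. Nfe2l3, a relative of Nfe2l2, had 1.81, 2.34 and 2.76 FPKM in UIR kidneys of day 21, against 0.13, 0.15 and 0.10 FPKM in sham kidneys. Palb2 had 2.44, 1.94 and 2.26 FPKM in UIR kidneys of day 3, against 0.36, 0.42 and 0.49 FPKM in sham kidneys. Both passed the filter on low values only through UIR groups in which they were high, so no test is given for them, although they are in the counts above.

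In glutathione synthesis and use, 14 of 15 genes could be tested. At days 1, 3 and 21, 5, 2 and 3 were higher (beside 28.5%, 57.6% and 60.7% of all genes) and 7, 8 and 10 lower (beside 31.1%, 17.9% and 20.1%), with medians of -0.19, -0.65 and -1.06, beside -0.03, 0.44 and 0.53 over all genes. At day 1, 7 were higher and 6 lower against the later sham kidneys (beside 39.6% and 32%). Slc7a11, the cystine importer, had 5.23, 5.61 and 1.61 FPKM in UIR kidneys of day 1, against 0.10, 0.05 and 0.06 FPKM in sham kidneys, with the lowest UIR value again in replicate 3. It was below 1 FPKM in every other library, so that it passed the filter only through the UIR kidneys of day 1, and no test is given, although it is among the higher genes counted. Gsr, glutathione reductase, was higher at day 1 (135 ± 12.8 FPKM in UIR kidneys and 98.5 ± 14.1 FPKM in sham kidneys, 0.45 ± 0.09, and 0.98 ± 0.08 against the later sham kidneys). At day 3 Gsr was at -0.11 (adjusted p = 0.29), called lower with median-of-ratios scaling (-0.64) and library weights (-0.16, adjusted p = 0.037), and at day 21 it was lower (21.3 ± 1.17 FPKM in UIR kidneys and 72.0 ± 3.30 FPKM in sham kidneys, -1.71 ± 0.09).

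Ggt1, the brush border enzyme that breaks glutathione down outside the cell, was lower at each day, with -1.26 ± 0.24 (-1.88 ± 0.20 against the later sham kidneys), -2.76 ± 0.24 and -4.47 ± 0.24. Gsta4 (1.70 ± 0.21, and 2.00 ± 0.18 against the later sham kidneys) and Gstm1 (-2.29 ± 0.16, and -1.88 ± 0.14), both glutathione transferases, moved apart at day 1. Ggct, which acts in glutathione breakdown, was lower (-3.14 ± 0.23) and Chac1, which acts there too, higher (1.41 ± 0.12) at day 3. At day 1 Ggct was higher (0.75 ± 0.23, but -0.89 ± 0.20 against the later sham kidneys) and Chac1 lower (-0.31 ± 0.12, but 2.66 ± 0.11). At day 21 Ggct was lower (-2.40 ± 0.23) and Chac1 higher (0.45 ± 0.12, at a mean of 0.917 FPKM in UIR kidneys). Gss, glutathione synthetase, was lower at days 1, 3 and 21 (-0.52 ± 0.16, -0.91 ± 0.16 and -2.45 ± 0.16, and -0.77 ± 0.14 at day 1 against the later sham kidneys). Mgst1 was higher at day 21 (0.47 ± 0.10, but -0.14 with median-of-ratios scaling). At day 1 Mgst1 had 145, 127 and 165 FPKM in UIR kidneys, below the 281, 310 and 342 FPKM in day-1 sham kidneys but above every later sham library. Gstm1 belongs to a family of near-identical genes and is uncertain as a single gene.

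In the thioredoxin and peroxiredoxin list, all 11 genes could be tested. At days 1, 3 and 21, 4, 4 and 2 were higher (beside 28.5%, 57.6% and 60.7% of all genes) and 3, 5 and 7 lower (beside 31.1%, 17.9% and 20.1%). Txnip, an inhibitor of thioredoxin, was higher at all 3 days (0.94 ± 0.14, 1.32 ± 0.14 and 2.2 ± 0.14, and 2.14 ± 0.12 at day 1 against the later sham kidneys). Txn1, thioredoxin itself, was higher at day 1 (0.33, adjusted p = 0.022, and 0.62 ± 0.10 against the later sham kidneys), a call lost without UIR replicate 3 (adjusted p = 0.097) or sham replicate 1 (adjusted p = 0.093), with library weights (adjusted p = 0.067), with quantile normalization (adjusted p = 0.055) and with the compared groups alone (adjusted p = 0.065). Its day-3 value was -0.07 (adjusted p = 0.57), or -0.61 with median-of-ratios scaling and 0.34 with quantile normalization, both called. At day 21 Txn1 was lower (-0.58, adjusted p = 0.00023), a call lost with quantile normalization (-0.19, adjusted p = 0.16). The peroxiredoxins differed among themselves. Prdx1 was higher at day 1 (0.45 ± 0.10), though not against the later sham kidneys (0.17, adjusted p = 0.099), and lower at day 3 (-0.27, adjusted p = 0.024) and day 21 (-0.99, adjusted p = 1.8e-07). Prdx4 was higher at days 3 and 21 (0.89 ± 0.16 and 0.76 ± 0.16), and both calls were lost with median-of-ratios scaling (0.38, adjusted p = 0.061, and 0.17, adjusted p = 0.39). The mitochondrial Prdx3 was lower at all 3 days (-0.83 ± 0.09, -0.97 ± 0.09 and -1.41 ± 0.09, and -1.04 ± 0.08 at day 1 against the later sham kidneys). Prdx5 was lower at days 3 and 21 (-2.53 ± 0.12 and -2.40 ± 0.12), and Txnrd2, the mitochondrial counterpart of Txnrd1, was lower at day 1 (-0.67 ± 0.07, and -0.60 ± 0.06 against the later sham kidneys).

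In NADPH production, all 12 genes could be tested. At days 1, 3 and 21, 3, 4 and 3 were higher (beside 28.5%, 57.6% and 60.7% of all genes) and 6, 4 and 5 lower (beside 31.1%, 17.9% and 20.1%). The pentose phosphate enzymes beside G6pdx included Pgd, which was higher at day 1 (219 ± 12.8 FPKM in UIR kidneys and 163 ± 19.8 FPKM in sham kidneys, 0.43 ± 0.09, and 1.90 ± 0.07 against the later sham kidneys) and day 3 (109 ± 7.01 FPKM in UIR kidneys and 53.6 ± 2.85 FPKM in sham kidneys, 1.01 ± 0.09). At day 21 Pgd was at 0.17 (adjusted p = 0.082), called higher with TPM (0.36), quantile normalization (0.32), library weights (adjusted p = 0.031) and the compared groups alone (adjusted p = 0.029), and lower with median-of-ratios scaling (-0.45). Taldo1 was higher at day 1 (1.36 ± 0.14, and 1.51 ± 0.12 against the later sham kidneys) and lower at day 21 (-0.46 ± 0.14), and Tkt was higher at day 3 (1.08 ± 0.09). Rpia was higher at day 21 (0.51 ± 0.17, adjusted p = 0.012), but was at -0.06 with median-of-ratios scaling and -0.02 with quantile normalization, and its call was lost without UIR day-21 replicate 3 (adjusted p = 0.055). Me2, a mitochondrial malic enzyme, was higher at all 3 days (1.08 ± 0.14, 1.98 ± 0.14 and 1.88 ± 0.14, and 1.10 ± 0.12 at day 1 against the later sham kidneys), opposite to Me1. Its mean levels in UIR kidneys, 6.17 to 11.7 FPKM, were below those of Me1. Me3, another malic enzyme of the list, overlapped sham at day 1 and lay below it without overlap at days 3 and 21. At day 3 Me3 had 4.95, 5.43 and 4.59 FPKM in UIR kidneys, against 8.02, 7.25 and 7.83 FPKM in sham kidneys. Its day-21 values were 5.58, 5.22 and 4.92 FPKM in UIR kidneys, against 8.23, 7.48 and 7.03 FPKM in sham kidneys. The isocitrate dehydrogenase Idh1 was lower at day 1 (-0.91 ± 0.16, and -1.60 ± 0.14 against the later sham kidneys) and day 21 (-2.25 ± 0.16), and Idh2 at day 1 (-0.93 ± 0.09, and -1.57 ± 0.08) and day 3 (-1.13 ± 0.09). Idh1 was also lower at day 3, with 122, 152 and 110 FPKM in UIR kidneys against 229, 260 and 214 FPKM in sham kidneys. So was Idh2 at day 21, with 74.4, 81.65 and 68.5 FPKM in UIR kidneys against 231, 244 and 227 FPKM in sham kidneys. The mitochondrial transhydrogenase Nnt was lower at day 3 (-1.06 ± 0.18) and day 21 (-1.73 ± 0.18).

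In quinone and xenobiotic detoxification, 13 of 14 genes could be tested. At days 1, 3 and 21, 4, 8 and 7 were higher (beside 28.5%, 57.6% and 60.7% of all genes) and 7, 0 and 2 lower (beside 31.1%, 17.9% and 20.1%), with medians of -0.30, 1.02 and 0.45, beside -0.03, 0.44 and 0.53 over all genes. Against the later sham kidneys, 7 were higher and 2 lower at day 1 (beside 39.6% and 32%). Akr1b8, an aldo-keto reductase, had 126, 162 and 189 FPKM in UIR kidneys of day 1, against 8.28, 4.65 and 8.40 FPKM in sham kidneys. Its log2 folds were 4.32 ± 0.17 (5.84 ± 0.15 against the later sham kidneys), 4.84 ± 0.17 and 3.36 ± 0.17 at days 1, 3 and 21, at positions 11, 24 and 381 from the top among all genes. Near-identical relatives make it uncertain as a single gene. Unlike Nqo1, it was higher than the sham kidneys of the same day throughout. The export pumps of the ABCC family parted. Abcc1 was among the 2 largest rises of the list at day 1 (1.46 ± 0.11, and 1.83 ± 0.09 against the later sham kidneys), Abcc4 at day 3 (2.30 ± 0.16) and Abcc3 at day 21 (3.41 ± 0.19). In FPKM, Abcc1 and Abcc3 lay above the sham kidneys of the same day without overlap at all 3 days. Abcc4 did so at days 3 and 21. At day 1 Abcc4 had 17.3, 19.1 and 22.9 FPKM in UIR kidneys, below the 27.8, 27.5 and 25.6 FPKM in sham kidneys. Abcc2, a pump of the proximal tubule brush border, was lower at day 1 (-1.14 ± 0.33), though not called against the later sham kidneys (-0.62, adjusted p = 0.059), and lower at day 21 (-3.68 ± 0.33). Cbr1, a carbonyl reductase, was lower at day 1 (-1.93 ± 0.18), but not against the later sham kidneys (-0.03 ± 0.16, adjusted p = 0.87). Ugdh was lower at day 21 (-0.98 ± 0.12).

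In the heme and iron list, all 7 genes could be tested. At days 1, 3 and 21, 0, 1 and 1 were higher (beside 28.5%, 57.6% and 60.7% of all genes) and 4, 4 and 4 lower (beside 31.1%, 17.9% and 20.1%), while against the later sham kidneys 4 were higher and 2 lower at day 1 (beside 39.6% and 32%). Hmox1, heme oxygenase 1, which NRF2 and BACH1 are both known to control, had 294, 197 and 123 FPKM in UIR kidneys of day 1, against 603, 251 and 358 FPKM in sham kidneys. The groups overlapped, and the log2 fold of -0.97 ± 0.31 (adjusted p = 0.013) was no longer called without UIR replicate 3 (-0.65, adjusted p = 0.076) or sham replicate 1 (-0.64, adjusted p = 0.082), or with only the compared groups fitted (adjusted p = 0.085). In sham kidneys Hmox1 was far lower at day 3 (14.9, 26.4 and 15.4 FPKM) than at day 1, a log2 fold of -4.30 ± 0.31 (adjusted p = 6.6e-08) and position 10 from the bottom among all genes. Against the later sham kidneys, Hmox1 in UIR kidneys of day 1 was therefore higher (3.07 ± 0.27, adjusted p = 3.9e-08). It was higher in UIR kidneys at day 3 (52.2 ± 5.62 FPKM in UIR kidneys and 18.9 ± 6.49 FPKM in sham kidneys, 1.46 ± 0.31), and at day 21 it was at 0.32 (adjusted p = 0.35). Blvra, a biliverdin reductase, was lower at day 1 (-0.92 ± 0.08, and -0.85 ± 0.07 against the later sham kidneys). Blvrb was higher at day 21 (0.83 ± 0.20), a call lost with median-of-ratios scaling (0.23, adjusted p = 0.31). Fth1, the ferritin heavy chain, was lower at days 3 and 21 (-1.34 ± 0.17 and -1.26 ± 0.17), as was Fech (-0.46 ± 0.12 and -1.37 ± 0.12), whose day-3 call was lost with TPM (-0.19, adjusted p = 0.20). Fth1 has near-identical copies and is uncertain as a single gene.

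**Figure D4:**
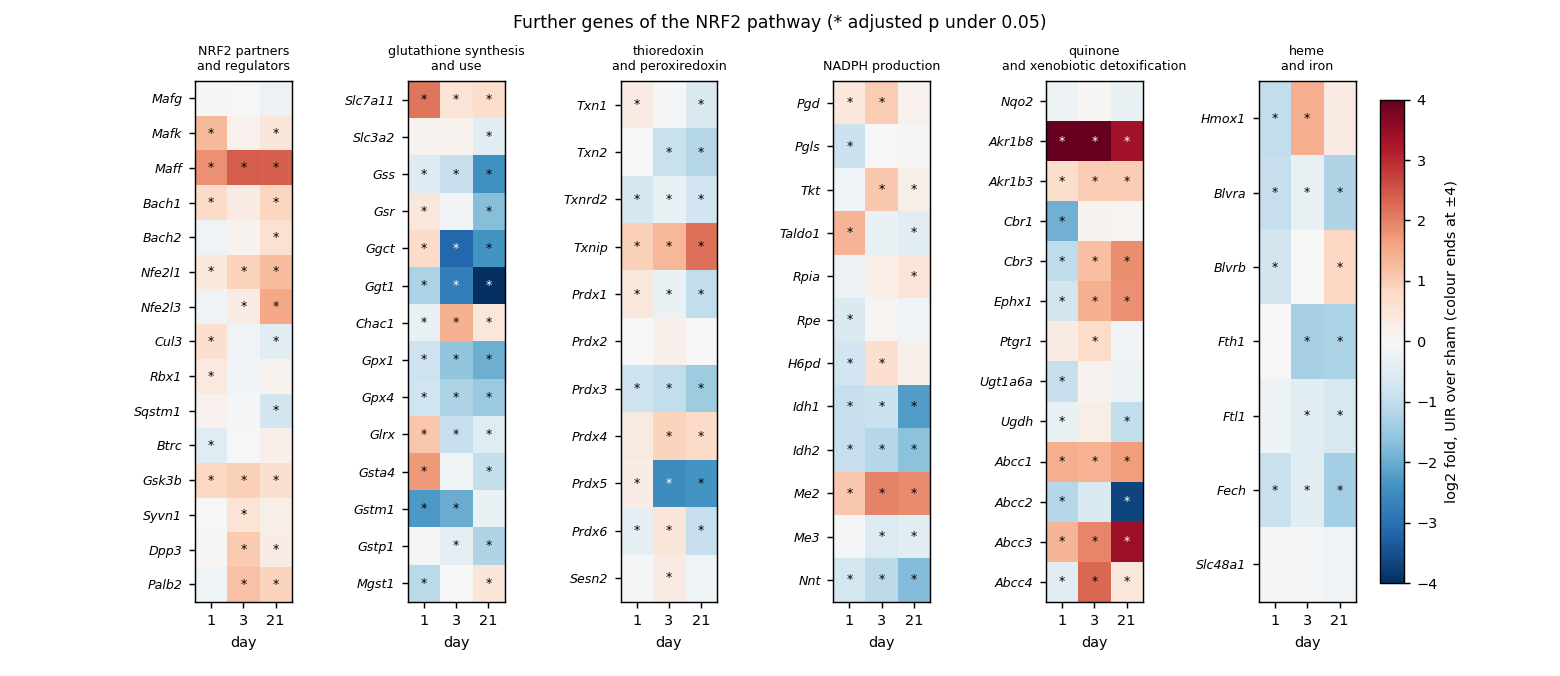
Log2 folds of UIR over sham at days 1, 3 and 21 for the tested genes of 6 lists of the NRF2 pathway, in colour from blue (lower in UIR) to red (higher in UIR), with an asterisk where limma's adjusted p was under 0.05 (not to be read for Slc7a11, Nfe2l3 and Palb2, which passed the filter only through UIR groups). Akr1b8 was 4.32, 4.84 and 3.36 at the 3 days and Maff 1.83, 2.42 and 2.38, whereas Ggt1 was -1.26, -2.76 and -4.47.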

How the data were processed

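RNA of whole kidney from 18 libraries, 3 in each of 6 groups, was sequenced, and the authors deposited FPKM values. The submitters' processing notes list HISAT2 2.0.4, Bowtie2 2.2.5, RSEM 1.2.12 and mm9 and give no roles. Counts are not used here, so the depth is unknown and no counting interval is given. limma 3.58.1 in R 4.3.3 fitted log2(FPKM + 1), with 1 mean per group and the variance trend (12 residual degrees of freedom), to 14716 genes with FPKM of at least 1 in at least 3 libraries. These folds understate changes of low genes. The script was tested on simulated data. With 3 libraries a group, the smallest p of an exact permutation test is 0.1, so none was run. The 10 genes, the lists and the naming rule were chosen with earlier results of these data known. The genes named from the lists are Hmox1, Slc7a11, Txn1, Gsr, Pgd, Sqstm1, Maff, Mafg, Mafk and Bach1, and, per list and UIR to sham comparison, up to 2 rises and 2 falls of largest size past the threshold. Rbx1, Gsk3b, Me3 and further days of some named genes were added outside this rule. The alternatives were other pseudocounts, filters, scalings and controls, library weights, a replicate block, the compared groups alone and leaving out each library. The labels call the replicates biological.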

Additional observations from a re-analysis of the deposited data

Results flagged for a closer look

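Differences between days in the effect of UIR over sham, each tested as the later minus the earlier effect in limma with adjustment over all genes, passed the threshold in 24 cases among the 10 genes, and each is given here as a log2 difference. Each effect uses its own UIR and sham libraries, and pairs of differences share 1 day.

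Between day 3 and day 1, the effect rose for Nfe2l2 (0.42, adjusted p = 0.024), Keap1 (0.34, adjusted p = 0.023) and G6pdx (1.00, adjusted p = 7.5e-05), and fell for Gclc (-1.49, adjusted p = 2.6e-05), Srxn1 (-2.00, adjusted p = 1.3e-07), Osgin1 (-2.57, adjusted p = 0.00028) and Me1 (-0.91, adjusted p = 0.034). The calls of Nfe2l2, Keap1 and Me1 were each lost without some single libraries, with adjusted p of up to 0.070 for Nfe2l2 and Keap1 and 0.085 for Me1, and with median-of-ratios scaling Nfe2l2 was -0.15 and Keap1 -0.21. In sham kidneys the level of Nfe2l2 and G6pdx was itself lower at day 3 than at day 1 (-0.78 and -0.94), and in UIR kidneys G6pdx was at 0.06 between these days. The part of the sham level in these differences was not tested apart from the comparison with later sham kidneys.

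Between day 21 and day 3, the effect fell for Nqo1 (-1.82, adjusted p = 1.1e-05), Gclc (-0.94, adjusted p = 0.0023), Gclm (-1.98, adjusted p = 2.3e-07), Txnrd1 (-0.89, adjusted p = 0.024), Srxn1 (-1.05, adjusted p = 0.00016), Me1 (-2.22, adjusted p = 0.00011) and G6pdx (-0.42, adjusted p = 0.045). The calls of G6pdx and Txnrd1 were lost without some single libraries, with adjusted p of up to 0.10 for G6pdx and 0.054 for Txnrd1. The sham groups of these 2 days differed in none of the 10 genes after adjustment in limma, and in 1, Nqo1, at an unadjusted p under 0.05.

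Between day 21 and day 1, the effect rose for Nfe2l2 (0.55, adjusted p = 0.0044), Keap1 (0.49, adjusted p = 0.0018) and G6pdx (0.58, adjusted p = 0.0050), which with median-of-ratios scaling were -0.11, -0.14 and -0.06. It fell for Nqo1 (-1.97, adjusted p = 1.1e-06), Gclc (-2.43, adjusted p = 1.0e-07), Gclm (-1.88, adjusted p = 8.5e-08), Txnrd1 (-1.41, adjusted p = 0.00056), Srxn1 (-3.05, adjusted p = 1.6e-09), Osgin1 (-3.23, adjusted p = 2.3e-05) and Me1 (-3.13, adjusted p = 1.1e-06).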

How the results depend on the processing

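The number of the 10 genes called stayed within 1.5 times its value in every comparison and alternative run. Without any 1 library it was 7 to 8 at day 1, 8 to 10 at day 3 and 8 at day 21 for UIR against sham, and over all comparisons 848 of the 10 genes' folds kept their side of the threshold, 7 gained a call and 45 lost it. Median-of-ratios scaling and quantile normalization set the all-gene median of day 3 to 0.03 and 0.01 and that of day 21 to 0.03 and -0.01, from 0.44 and 0.53 as deposited, and TPM set them to 0.75 and 0.76. Of all genes called, 76.3% were higher at day 3 and 75.2% at day 21 as deposited, 51.3% and 51% with median-of-ratios scaling, 51.2% and 49.2% with quantile normalization, and 84.1% and 80.2% with TPM.

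Directions turned as follows. With median-of-ratios scaling, Keap1 was -0.26 at day 3 and -0.19 at day 21. The differences of effects between day 3 and day 1 were -0.15 (Nfe2l2), -0.21 (Keap1) and -0.47 (Gclm), and those between day 21 and day 1 were -0.11 (Nfe2l2), -0.14 (Keap1) and -0.06 (G6pdx). Among UIR kidneys, day 3 against day 1 was -0.24 (Keap1) and -0.34 (G6pdx), and day 21 against day 1 was -0.24 (Keap1). With quantile normalization Keap1 was -0.12 at day 3 and its difference of effects between day 3 and day 1 -0.04. With the later sham kidneys as control at day 1, Nqo1 was 0.82 and Gclm 0.06. Alternatives for the pathway genes were chosen after seeing the data: median-of-ratios scaling gave Mafg -0.51 and Mafk -0.34 at day 3, and Mgst1 -0.14, Rpia -0.06, Pgd -0.45 and Mafk -0.10 at day 21. Quantile normalization gave Txn1 0.34, Sqstm1 0.36, Mafg -0.29 and Mafk -0.30 at day 3, and Rpia -0.02 and Mafk -0.02 at day 21. The later sham kidneys gave Hmox1 3.07 and Mafg 0.39. The cause of each change was not tested beyond the scale or control that defines it. The difference of effects of Me1 between day 3 and day 1 missed the threshold with TPM (-0.63, adjusted p = 0.14), with quantile normalization (-0.67, adjusted p = 0.18) and without the filter on low values (adjusted p = 0.052).

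Replicate numbers showed no clear pairing of the samples: deviations of same-numbered UIR and sham libraries correlated at -0.07 to 0.11, with 1 pair over 0.1, and 4 of 9 UIR libraries were closest to the sham library of their own number. With 3 libraries a group, this check cannot exclude a pairing. With the replicate block, 8705, 11058 and 11837 genes were called at days 1, 3 and 21, against 8770, 11104 and 11885 without it. Of the 10 genes' folds over all comparisons, 119 kept their side of the threshold and 1 lost its call (G6pdx, day 21 against day 3 effects, -0.42, adjusted p = 0.053). Depth is unknown, so precision rests on 3 libraries a group.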
